A study of Homo sapiens with 9 samples.

Results

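The genes described here encode the machinery that makes, breaks down and reads the cyclic nucleotides cAMP and cGMP: adenylyl cyclases (ADCY), phosphodiesterases (PDE), the catalytic and regulatory subunits of protein kinase A (PKA; PRKACA, PRKACB and the PRKAR genes), A-kinase anchoring proteins (AKAP), the CREB transcription factors and cyclic nucleotide-gated channels (CNG). They were chosen by gene symbol alone, and 50 of the 20777 genes in the table of counts matched. RNA was sequenced from LX-2 cells, a human hepatic stellate cell line that grows without limit in culture, with the genotype given in the labels as wild type. There were 3 groups of 3 libraries each. The control group has no treatment in its labels, the TGF-β group was treated with TGF-β, and the TGF-β + uridine group was treated with TGF-β and uridine, both at day 1 by the labels. In the study's methods the cells received TGF-β first, after which the medium was exchanged for complete medium that contained uridine. No group received uridine without TGF-β, all libraries come from the same cell line, and the sources used here do not say whether replicates were separate cultures, so that p-values measure the spread between these libraries.

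Adenylyl cyclases form cAMP from ATP when the Gs α subunit activates them, and Gi α subunits inhibit several of them. cAMP binds the regulatory subunits of PKA and releases the catalytic subunits, AKAPs hold PKA at particular places in the cell, and phosphodiesterases end the signal by hydrolysing cAMP, cGMP or both. The released kinase phosphorylates CREB1, which binds the cAMP response element (CRE) in promoters. The study asked whether uridine acts on stellate cells through this pathway.

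Promoter windows are shown for the 3 members with a RefSeq promoter (GRCh38.p14) that holds the complete CRE, because CREB binds that element. Each promoter is a short window around a gene start, and PRKAR1A and PDE4A have 5 promoters each, of which not all are shown. Windows are also shown for ADCY7 and CNGB1, because their transcripts differed between groups. Those of ADCY6 and PDE9A differed too, but no promoter was given for these genes. The searches covered both strands, for TGACGTCA (CRE), its core TGACG, which is also part of the CRE, and TGACTCA (the AP-1 element). Capitals mark the CRE in PRKAR1A, PDE4A and PDE7B and the AP-1 element in ADCY7, and the CNGB1 window held none of the 3. The windows are PRKAR1A at chr17:68512330-68512429 (plus strand), PDE4A at chr19:10416681-10416780 (plus), PDE7B at chr6:135851501-135851600 (plus), ADCY7 at chr16:50266456-50266555 (plus) and CNGB1 at chr16:57971129-57971228 (minus), each 5′ to 3′.
PRKAR1A: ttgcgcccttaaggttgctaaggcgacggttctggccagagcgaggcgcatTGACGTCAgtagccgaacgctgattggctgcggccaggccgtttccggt
PDE4A: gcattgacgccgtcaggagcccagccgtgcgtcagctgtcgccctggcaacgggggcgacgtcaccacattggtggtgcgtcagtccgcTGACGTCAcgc
PDE7B: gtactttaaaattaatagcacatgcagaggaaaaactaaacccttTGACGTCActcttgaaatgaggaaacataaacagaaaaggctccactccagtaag
ADCY7: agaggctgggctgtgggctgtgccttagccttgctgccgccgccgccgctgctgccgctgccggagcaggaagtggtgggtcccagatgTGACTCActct
CNGB1: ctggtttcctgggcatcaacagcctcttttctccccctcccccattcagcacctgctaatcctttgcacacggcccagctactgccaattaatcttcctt
A promoter was given for 43 of the 50 members. The CRE was found in 6.98% of these 43 genes and in 2.25% of all 27305 genes with a promoter. TGACG was found in 44.2% of the members and 28.4% of all genes, and TGACTCA in 11.6% and 6.05%. A gene with more promoters has more windows for a match, and the 43 members had 112 promoters against 35116 for the 27305 genes. Counted by promoter, the CRE was found in 3.57% of member promoters and 1.85% of all. The shares by promoter were 23.2% and 24.6% for TGACG, and 4.46% and 4.95% for TGACTCA. A match is a stretch of letters and not a measured binding site, and no binding was measured here.

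The libraries held 40539751 to 41467124 counted reads each. Control replicate 1 stood apart from the other libraries along the largest principal component, and it took the lowest TMM factor (0.820, against 0.930 to 1.16 in the others). Libraries also differed in how steeply expression followed the GC content of genes, with a slope of log2 CPM per 10 GC points of 1.43 in control replicate 1, 0.788 in control replicate 2 and 0.447 in control replicate 3, against 0.830 to 0.917 in the TGF-β group and 0.589 to 1.09 in the TGF-β + uridine group. Members whose calls turned on control replicate 1 are therefore given with and without it. The stellate cell label was checked against 16 markers, of which the table held 14. VIM (698 FPKM), TIMP1 (136 FPKM) and COL1A1 (9.87 FPKM) were present, COL1A2, HAND2 and RELN had at most 1 count in any library, and GFAP had at most 4. Of 7 epithelial markers, KRT8 (2438 FPKM), KRT18 (1649 FPKM) and KRT7 (907 FPKM) were the most abundant and EPCAM had at most 5 counts. The summed FPKM of the epithelial markers was 4298 to 6100 in the control, 5291 to 5454 in the TGF-β and 4373 to 4971 in the TGF-β + uridine libraries, and that of the stellate cell markers was 625 to 683, 1021 to 1042 and 923 to 945. Their part in the results below was not tested.

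Of the 50 genes, 37 had enough reads to be tested among 13384 genes, namely 4 of 6 ADCY genes, 14 of 21 PDE genes, both PRKAC genes, 3 of 4 PRKAR genes, 10 of 12 AKAP genes, all 3 CREB genes and 1 of 2 CNG genes. The other 13 were ADCY5, ADCY10, AKAP3, AKAP5, CNGA4, PDE1B, PDE1C, PDE4C, PDE5A, PDE6A, PDE6B, PDE11A and PRKAR2B. In 7 of them, ADCY5, ADCY10, CNGA4, PDE1B, PDE6B, PDE11A and PRKAR2B, no library held 3 counts, the limit that a count of 0 allows, so that their expression was not detectable at this depth. The limit corresponds to 0.0629 to 0.0889 normalized CPM, depending on the library, and covers counting error only.

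A few genes carried most of the transcripts of each family, as read from FPKM values, which are scaled for gene length. ADCY3 (18.9 FPKM, mean of the 9 libraries) led the cyclases, before ADCY9 (6.66), ADCY6 (4.08) and ADCY7 (2.69). Among the phosphodiesterases, the cAMP-specific PDE4A (10.2 FPKM) and PDE6D (5.72 FPKM), which binds prenylated proteins and has no catalytic domain, were the most abundant. AKAP8L (48.5 FPKM), a nuclear anchoring protein, and CREB3 (51.4 FPKM), a factor that is anchored in the endoplasmic reticulum and released by proteolysis, stood highest in their families. CREB1 was listed at only 0.0799 FPKM and CREB5 at 0.0185 FPKM. FPKM values are not scaled for GC content, and they rose with it across the members, as given below. The part of GC content in this order of genes was not tested.

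**Figure D1:**
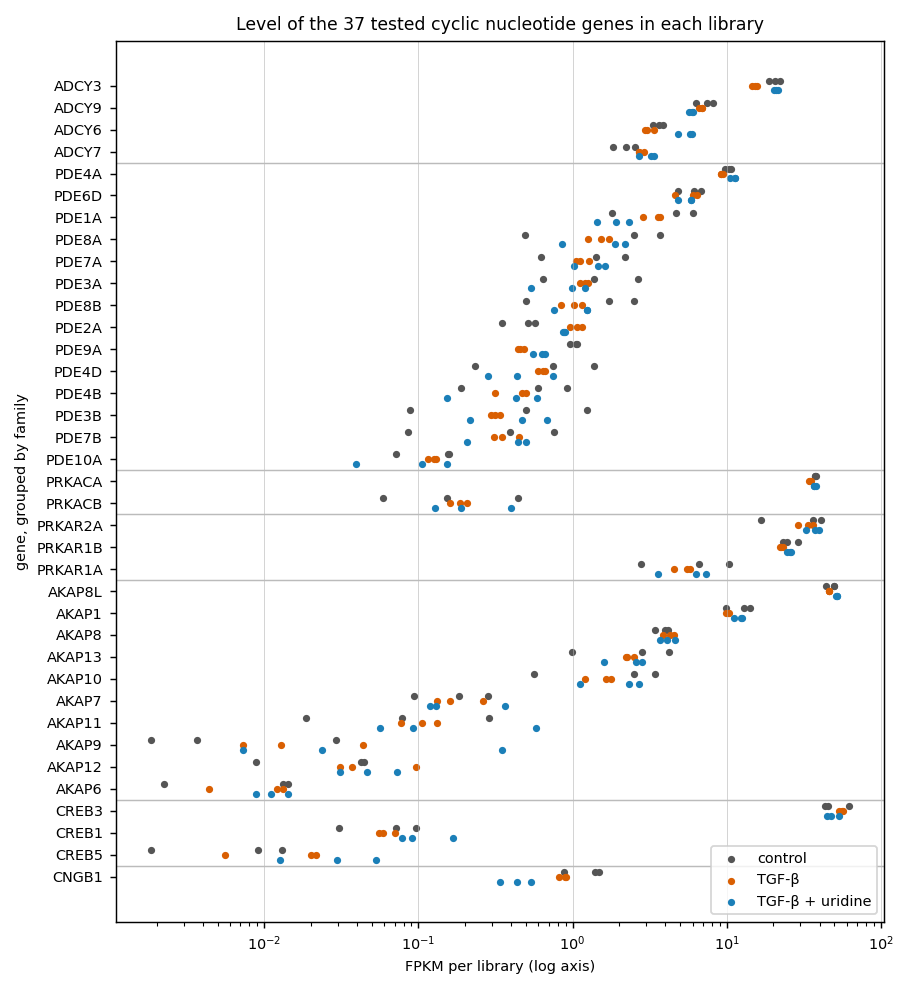
FPKM of the 37 tested genes in each of the 9 libraries (log axis), ordered by family and by mean level. Grey dots are control, orange dots TGF-β and blue dots TGF-β + uridine libraries. CREB3, AKAP8L, PRKACA, PRKAR2A, PRKAR1B and ADCY3 lie above 10 FPKM in every library, while CREB1 and CREB5 stay below 1 FPKM.

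Few of these genes passed the test between groups. Levels between groups are given as normalized CPM, which are counts scaled to a common library size with TMM factors, and the groups were compared by the quasi-likelihood test of edgeR, with Benjamini-Hochberg adjustment over all 13384 genes, and an adjusted p under 0.05 was called. By this rule, 1 of the 37 members (PDE9A) was lower in the TGF-β group than in the control group and 0 were higher, against a background of 3.38% of all tested genes in either direction (0.964% lower and 2.42% higher). Between TGF-β + uridine and TGF-β, edgeR called 0 members, as it did nearly all genes (0.0448%), while at an unadjusted p under 0.05 there were 3 members higher and 3 lower (background 4.65% and 4.14%). At that threshold 2 members were higher and 4 lower in TGF-β than in control (background 6.69% and 5.43%), and 4 were higher and 4 lower in TGF-β + uridine than in control (9.08% and 8.55%). Between TGF-β + uridine and control, 2 members (ADCY6 and ADCY7) were higher and 1 (CNGB1) lower, against 2.89% and 2.44% of all genes (5.33% in either direction). Both comparisons with control share the control libraries. All 3 TGF-β libraries lay above the control libraries in 2 members and below them in 4 (background 9.72% and 7.96%). TGF-β + uridine libraries lay above the TGF-β libraries in 8 members and below them in 5 (12.8% and 12.8%), and above the control libraries in 4 and below them in 3 (10.5% and 9.2%). In bulk RNA a lower level in each cell and fewer expressing cells cannot be told apart. The median log2 fold change of the 37 members was −0.13, 0.07 and −0.04 in the 3 comparisons, beside −0.05, 0.02 and −0.01 over all tested genes.

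The spread of the control libraries enters all 3 comparisons, because a common model was fitted to the 9 libraries. Between TGF-β + uridine and TGF-β, a model of only those 2 groups called ADCY3 and ADCY6 higher and CNGB1 and PDE1A lower (background 2.44%), and the model without control replicate 1 called the same 4 members (background 1.98%). DESeq2 called ADCY6 higher and CNGB1 lower (background 1.78%). Without control replicate 1, 10 members were called between TGF-β + uridine and control, at a background of 17.6%, and 4 between TGF-β and control, at a background of 7.93%. Without control replicate 2 these counts were 1 (CNGB1) and 0, at backgrounds of 2.23% and 1.75%.

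**Figure D2:**
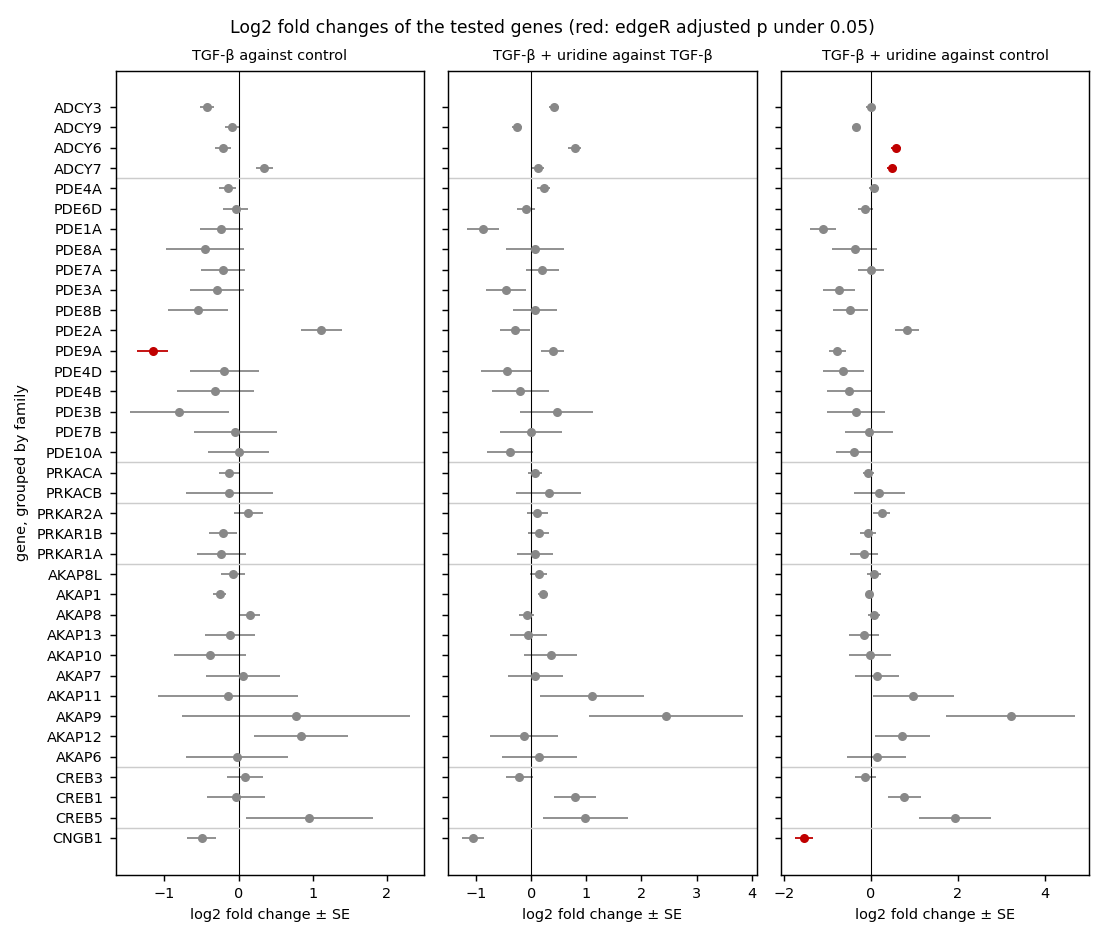
Log2 fold changes ± SE of the 37 tested genes from the edgeR model of all 9 libraries, in the 3 comparisons. Red points are the members with an adjusted p under 0.05, PDE9A in the left panel and ADCY6, ADCY7 and CNGB1 in the right panel, and grey points are all others.

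The 4 expressed adenylyl cyclases moved in different directions. ADCY6 and ADCY7 were the cyclases that rose in TGF-β + uridine cells relative to control cells, whereas no cyclase passed the test between TGF-β + uridine and TGF-β or between TGF-β and control.

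ADCY6, a cyclase that calcium and PKA inhibit, lies at chr12:48766194-48789037 on the minus strand (GENCODE v29, GRCh38). Its normalized CPM was 32.2, 27.9 and 26.3 in the control, 24.2, 24.1 and 26.4 in the TGF-β and 45.7, 40.95 and 42.3 in the TGF-β + uridine libraries. All TGF-β + uridine libraries lay above the other 6, whereas control and TGF-β libraries overlapped. In log2 fold change the TGF-β + uridine group stood 0.58 above control (SE 0.11, n = 3 per group, edgeR adjusted p = 0.0214) and 0.79 above TGF-β (SE 0.11, edgeR adjusted p = 0.0992). The call against control held without control replicate 1 (edgeR adjusted p = 0.0022) or control replicate 3 (0.0448). It was lost without control replicate 2 (0.11), without TGF-β replicate 1, 2 or 3 (0.0549, 0.0566 and 0.0515) and without TGF-β + uridine replicate 1, 2 or 3 (0.119, 0.0611 and 0.0793), with log2 fold changes from 0.52 to 0.64 over all 9 omissions. Of 7 other settings tried, the call of ADCY6 held in 5. It was lost with only the 2 groups compared and with the replicate number as a block.

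ADCY7, a cyclase stimulated by G protein βγ subunits, lies at chr16:50246137-50318135 on the plus strand. The libraries had 15.3, 14.6 and 14.9 normalized CPM of it in the control, 18.9, 18.5 and 19.7 in the TGF-β and 21.3, 19.8 and 21.2 in the TGF-β + uridine group. The 3 groups did not overlap, and the control group was the lowest. TGF-β + uridine exceeded control by a log2 fold change of 0.48 (SE 0.11, n = 3 per group, edgeR adjusted p = 0.0396), and the log2 fold change of TGF-β against control was 0.35 (SE 0.11, adjusted p = 0.162). The call held without control replicate 1 (edgeR adjusted p = 0.0133). It was lost when any other library was left out, with adjusted p-values of 0.172 and 0.0647 without control replicates 2 and 3, 0.0947, 0.0968 and 0.0937 without TGF-β replicates 1, 2 and 3, and 0.17, 0.0961 and 0.143 without TGF-β + uridine replicates 1, 2 and 3. Of 7 other settings tried, the call of ADCY7 held in 3. It was lost with RLE normalization, without the filter on low counts, with only the 2 groups compared and with the replicate number as a block. Of the exonic bases of ADCY7, 41.6% also belong to another gene model, BRD7, and the strand setting of the authors' counting is not given in the sources used here, so that reads of these bases cannot be told apart.

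ADCY3, the most abundant cyclase, showed another pattern. Its normalized CPM was 126, 108 and 105 in the control, 83.0, 86.6 and 83.5 in the TGF-β and 109.5, 118.6 and 109.5 in the TGF-β + uridine libraries. Every TGF-β library lay below all control and all TGF-β + uridine libraries. In TGF-β against control the log2 fold change came to −0.43 (SE 0.10, edgeR adjusted p = 0.0527), whereas TGF-β + uridine against TGF-β gave 0.42 (SE 0.10, edgeR adjusted p = 0.261). Neither passed the threshold. Without control replicate 1 both comparisons passed it (edgeR adjusted p = 0.0174 and 0.0205), and without control replicate 3 the comparison with control did (0.0406). Of the exonic bases of ADCY3, 26.0% are shared with other gene models, CENPO and AC012073.1, and reads of these bases cannot be told apart, as for ADCY7.

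ADCY9 was lowest in the TGF-β + uridine group, with 63.0, 58.9 and 57.1 normalized CPM in the control, 58.6, 56.3 and 53.9 in the TGF-β and 46.7, 49.8 and 45.3 in the TGF-β + uridine libraries. Its TGF-β + uridine libraries lay below the other 6. It stood at −0.34 against control in log2 fold change (SE 0.09, edgeR adjusted p = 0.0758) and −0.25 against TGF-β (SE 0.09, adjusted p = 0.465). Without control replicate 1 the difference from control passed the threshold (−0.31, edgeR adjusted p = 0.0276), as it did with DESeq2 on all libraries (−0.35, adjusted p = 0.0153).

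The make-up of the cyclase transcripts can also be read within each library, since a share does not depend on the scaling between libraries. ADCY6 made up 10.5% to 10.9% of the summed ADCY FPKM in control, 10.7% to 11.9% in TGF-β and 14.4% to 16.7% in TGF-β + uridine libraries. ADCY9 made up 20.8% to 22.1%, 23.5% to 25.5% and 16.3% to 17.0%. ADCY3 made up 60.6% to 62.2%, 53.8% to 55.6% and 57.8% to 60.4%, so that it held the largest share in every library. ADCY7 held 6.04% to 6.90%, 9.53% to 10.3% and 8.11% to 9.17%. The 3 ranges did not overlap for ADCY3, ADCY7 and ADCY9, and for ADCY6 only the control and TGF-β ranges did.

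**Figure D3:**
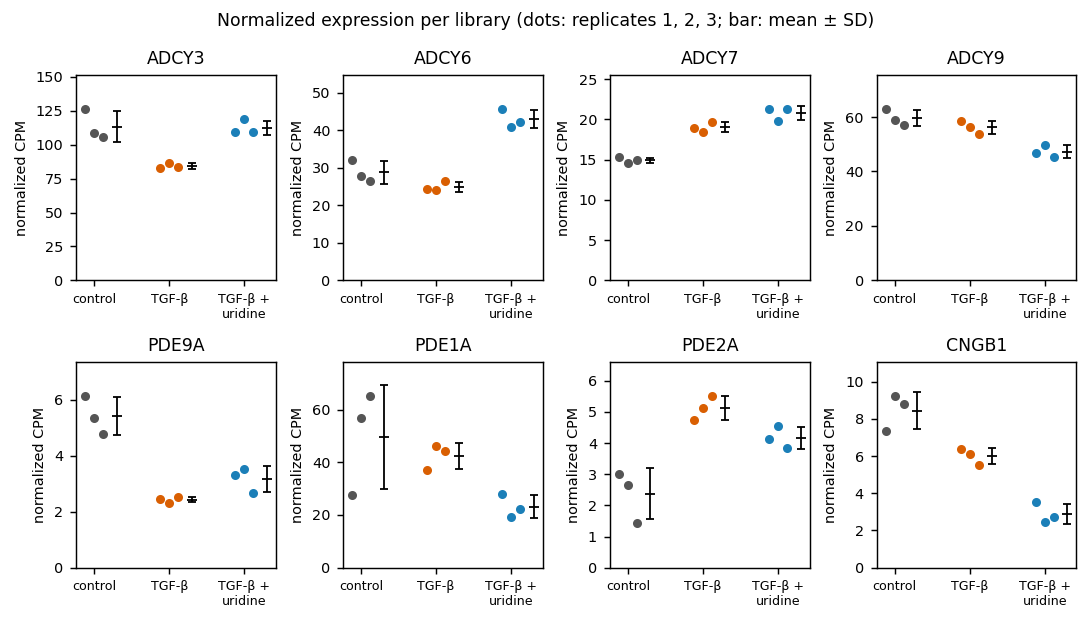
Normalized CPM of 8 genes in each library. Dots are replicates 1, 2 and 3 from left to right, and the bar beside them is the mean ± SD of the group. CNGB1 falls from control (7.35 to 9.22) over TGF-β (5.51 to 6.36) to TGF-β + uridine (2.46 to 3.51), and ADCY6 is highest in TGF-β + uridine (40.95 to 45.7).

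Among the 14 tested phosphodiesterases, PDE9A was the gene that fell in TGF-β cells relative to control cells. It encodes a phosphodiesterase with high affinity for cGMP and lies at chr21:42653636-42775509 on the plus strand. Its normalized CPM was 6.13, 5.36 and 4.76 in the control, 2.44, 2.32 and 2.51 in the TGF-β and 3.33, 3.53 and 2.67 in the TGF-β + uridine libraries. The 3 groups did not overlap, with control highest and TGF-β lowest. The log2 fold change of TGF-β against control was −1.16 (SE 0.21, n = 3 per group, edgeR adjusted p = 0.0157). It was −0.77 for TGF-β + uridine against control (SE 0.20, adjusted p = 0.0666; −0.69 and 0.0489 without control replicate 1) and 0.39 for TGF-β + uridine against TGF-β (SE 0.20, adjusted p = 0.669). The call of TGF-β against control was lost without control replicate 2 (edgeR adjusted p = 0.0732), without TGF-β replicate 1, 2 or 3 (0.0852, 0.099 and 0.0827) and in a model of only the 2 groups (0.0591), while the log2 fold change stayed between −1.24 and −1.06 over the 9 omissions.

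PDE1A, which calcium and calmodulin activate and which hydrolyses both nucleotides, had 27.5, 56.7 and 65.1 normalized CPM in the control, 36.9, 46.2 and 44.2 in the TGF-β and 28.0, 19.4 and 22.1 in the TGF-β + uridine libraries. Every TGF-β + uridine library lay below the TGF-β libraries, while control replicate 1 lay among the TGF-β + uridine libraries. Against TGF-β the log2 fold change came to −0.87 (SE 0.29, edgeR adjusted p = 0.404), and against control −1.10 (SE 0.29, adjusted p = 0.0664). Without control replicate 1 both passed the threshold, with −0.89 (edgeR adjusted p = 0.0208) and −1.42 (edgeR adjusted p = 0.000466).

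PDE2A, a cAMP and cGMP phosphodiesterase that cGMP stimulates, was singled out after its values were seen. It had 3.02, 2.64 and 1.45 normalized CPM in the control, 4.73, 5.13 and 5.51 in the TGF-β and 4.14, 4.55 and 3.84 in the TGF-β + uridine libraries. The 3 groups did not overlap, with TGF-β highest. Its log2 fold change of 1.11 for TGF-β against control (SE 0.28) did not pass the threshold (edgeR adjusted p = 0.0732), and without control replicate 1 it did (1.32, edgeR adjusted p = 0.0165). TGF-β + uridine exceeded control by 0.82 in log2 fold change (SE 0.28, edgeR adjusted p = 0.15), and by 1.01 without control replicate 1 (edgeR adjusted p = 0.0313).

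The most abundant phosphodiesterase genes differed less. PDE4A had 74.2, 63.6 and 55.4 normalized CPM in the control, 58.9, 57.3 and 58.2 in the TGF-β and 67.5, 70.8 and 65.6 in the TGF-β + uridine libraries. The TGF-β + uridine libraries lay above the TGF-β libraries and among the control libraries. For TGF-β + uridine against TGF-β the log2 fold change was 0.22 (95% interval −0.04 to 0.48, edgeR adjusted p = 0.652). PDE6D had 8.85 to 10.9 in control, 8.0 to 10.8 in TGF-β and 8.68 to 9.37 in TGF-β + uridine libraries, and the groups overlapped. Its log2 fold change was −0.09 for TGF-β + uridine against TGF-β (95% interval −0.47 to 0.29). Of the other 9 tested PDE genes, none passed the edgeR test on all 9 libraries without a covariate, and their log2 fold changes of TGF-β + uridine against TGF-β lay between −0.45 (PDE3A, SE 0.37) and 0.46 (PDE3B, SE 0.67). In 3 of the 9, named after their values were seen, the call turned on control replicate 1. They are PDE3A, for a cAMP phosphodiesterase that cGMP inhibits, and PDE4D and PDE8B, for phosphodiesterases specific to cAMP. PDE3A had 14.8, 25.2 and 43.5 normalized CPM in the control, 21.8, 23.8 and 22.6 in the TGF-β and 17.9, 10.8 and 21.1 in the TGF-β + uridine libraries. Control replicate 1 was the lowest of its group in all 3 genes, and on all libraries their log2 fold changes of TGF-β + uridine against control were −0.75, −0.63 and −0.48 for PDE3A, PDE4D and PDE8B (edgeR adjusted p = 0.352, 0.609 and 0.672). Without control replicate 1 they were −1.07, −1.04 and −0.87 and passed the threshold (edgeR adjusted p = 0.0281, 0.0465 and 0.0269), at a background of 8.16% of genes called lower. PDE8B was then also lower in TGF-β than in control (−0.92, edgeR adjusted p = 0.0338), at a background of 2.75%. Of the exonic bases of PDE8B, 41.6% are shared with other gene models.

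The PKA subunit genes did not pass the test in any comparison of all 9 libraries without a covariate. PRKACA, which encodes the catalytic subunit Cα, lies at chr19:14091688-14118084 on the minus strand and accounted for 98.9% to 99.8% of the summed FPKM of the 2 catalytic genes in every library. Its normalized CPM was 157.5, 124.1 and 112.6 in the control, 123.7, 117.8 and 119.6 in the TGF-β and 126.1, 135.8 and 116.4 in the TGF-β + uridine libraries. The groups overlapped, and control replicate 1 was the highest library. The log2 fold change was −0.13 for TGF-β against control (95% interval −0.42 to 0.17, edgeR adjusted p = 0.914), 0.07 for TGF-β + uridine against TGF-β (−0.23 to 0.36, adjusted p = 0.992) and −0.06 for TGF-β + uridine against control (−0.35 to 0.24, adjusted p = 0.926). On the FPKM scale, which divides by the library total alone, PRKACA had 37.6, 37.5 and 38.0 in the control, 34.9, 34.2 and 35.1 in the TGF-β and 38.1, 36.8 and 36.7 in the TGF-β + uridine libraries. There the TGF-β libraries lay below the other 6, so that the overlap between groups depended on the scaling.

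The regulatory subunit genes PRKAR2A (33.6 FPKM), PRKAR1B (24.6 FPKM) and PRKAR1A (5.86 FPKM) were expressed, and PRKAR2B had at most 1 count. PRKAR2A, which encodes the RIIα subunit that most AKAPs bind, had 143, 244 and 249 normalized CPM in the control, 209, 237 and 251 in the TGF-β and 266, 246 and 241 in the TGF-β + uridine libraries. Control replicate 1 was the lowest library, and the groups overlapped. PRKAR1B, for RIβ, had 116, 78.3 and 66.0, then 78.8, 73.7 and 72.6, then 81.1, 92.1 and 74.7 normalized CPM in the same order of groups, with control replicate 1 highest. PRKAR1A, for RIα, had 17.3, 32.7 and 45.3, then 23.8, 29.7 and 27.8, then 31.1, 19.6 and 34.7, with control replicate 1 lowest. The log2 fold changes of TGF-β + uridine against TGF-β were 0.11 (95% interval −0.33 to 0.55), 0.14 (−0.29 to 0.57) and 0.07 (−0.67 to 0.82) for PRKAR2A, PRKAR1B and PRKAR1A. PRKACB, for the catalytic subunit Cβ, had 0.474 to 2.54 normalized CPM in control, 1.07 to 1.41 in TGF-β and 0.915 to 2.46 in TGF-β + uridine libraries, and its interval for the same comparison was −1.01 to 1.64. The ratio of summed catalytic to summed regulatory FPKM was 0.777 in control replicate 1 and 0.514 to 0.619 in the other 8 libraries.

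**Figure D4:**
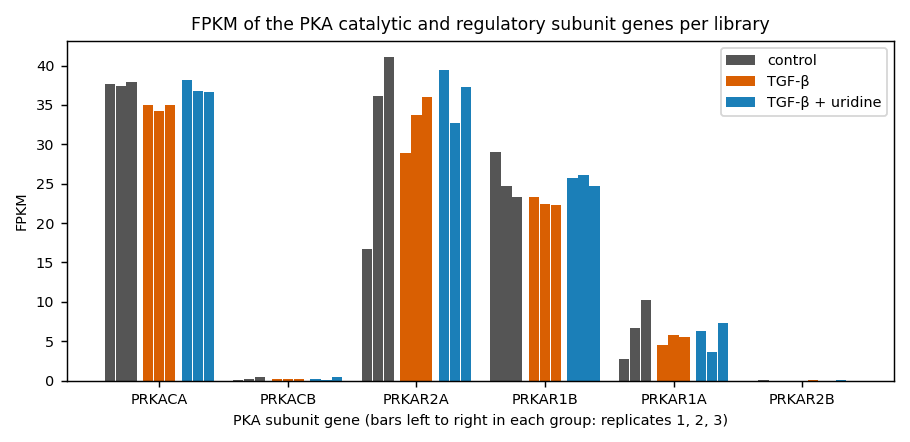
FPKM of the 6 PKA subunit genes in each library, with bars for replicates 1, 2 and 3 from left to right in grey (control), orange (TGF-β) and blue (TGF-β + uridine). PRKACA is nearly level at 34.2 to 38.1 FPKM, whereas PRKAR2A (16.7 to 41.1) and PRKAR1A (2.79 to 10.3) vary most among the control libraries.

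No anchoring protein gene passed the edgeR test of all 9 libraries without a covariate. AKAP1, which holds PKA at the outer mitochondrial membrane, had 61.1, 63.3 and 62.5 normalized CPM in the control, 53.9, 50.4 and 52.3 in the TGF-β and 61.9, 61.4 and 58.6 in the TGF-β + uridine libraries. Every TGF-β library lay below the other 6. For AKAP1 the log2 fold change was −0.25 for TGF-β against control (SE 0.08, edgeR adjusted p = 0.187) and 0.22 for TGF-β + uridine against TGF-β (SE 0.08, adjusted p = 0.487). AKAP8L had 126, 99.5 and 79.7 normalized CPM in the control, 99.2, 95.8 and 94.9 in the TGF-β and 102, 117 and 100 in the TGF-β + uridine libraries, and the log2 fold change of TGF-β + uridine against TGF-β was 0.14 (95% interval −0.22 to 0.49). The TGF-β + uridine libraries of AKAP8L lay above the TGF-β libraries, within the range of the control group, and 31.8% of its exonic bases are shared with other gene models. The other 8 tested AKAP genes overlapped between all groups, and 5 of them, AKAP6, AKAP7, AKAP9, AKAP11 and AKAP12, had a mean FPKM under 0.2. The widest difference, 3.21 on the log2 scale for AKAP9 (TGF-β + uridine against control, SE 1.49), rested on 1 library, TGF-β + uridine replicate 3, with 4.29 normalized CPM against 0.0930 and 0.340 in the others of its group.

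The 3 CREB genes did not pass the test either. CREB3 had 114, 65.8 and 56.0 normalized CPM in the control, 87.1, 83.6 and 79.8 in the TGF-β and 64.5, 85.6 and 65.4 in the TGF-β + uridine libraries. The control libraries covered the range of the other groups. Between TGF-β + uridine and TGF-β the log2 fold change was −0.22 (95% interval −0.77 to 0.34, edgeR adjusted p = 0.938). CREB1 had 0.474, 0.881 and 1.07 normalized CPM in the control, 0.780, 0.896 and 0.706 in the TGF-β and 1.12, 1.07 and 1.97 in the TGF-β + uridine libraries. Each TGF-β + uridine library lay above all 6 others, the nearest by a narrow margin, and the log2 fold changes of 0.80 against TGF-β (SE 0.38, edgeR adjusted p = 0.614) and 0.77 against control (SE 0.38, adjusted p = 0.359) did not pass the threshold. These values rest on 16 to 87 reads per library. CREB5 had 1 to 29 reads per library and overlapped between the groups.

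CNGB1 showed the largest change of any called member. It encodes the β subunit of the rod photoreceptor channel, which cGMP opens, and lies at chr16:57882340-57971116 on the minus strand, with none of its exonic bases shared with another gene. Its normalized CPM was 7.35, 9.22 and 8.77 in the control, 6.36, 6.12 and 5.51 in the TGF-β and 3.51, 2.46 and 2.73 in the TGF-β + uridine libraries, from 94 to 418 reads. The 3 groups did not overlap, and the TGF-β + uridine group was the lowest. The log2 fold change of TGF-β + uridine against control was −1.54 (SE 0.20, 95% interval −2.0 to −1.08, n = 3 per group, edgeR adjusted p = 0.00312). It was −1.05 against TGF-β (SE 0.20, edgeR adjusted p = 0.167), and that of TGF-β against control was −0.49 (SE 0.20, adjusted p = 0.322). The call against control held in all 9 omissions of a library, with log2 fold changes from −1.70 to −1.44 and adjusted p-values of 0.000702 to 0.024, and in all 7 other settings tried. On the FPKM scale control replicate 1 (0.885) fell among the TGF-β libraries (0.814 to 0.907), while the TGF-β + uridine libraries (0.336 to 0.536) stayed below all others. CNGA4, the other CNG gene listed, had 1 read in 1 library. HCN channel genes were read with the other cyclic nucleotide effectors below, and edgeR called 0 genes of that list.

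Members of low GC content varied most between the control libraries. Of the 37 tested members, 23 had a GC content under 50% and a median level of 0.463 FPKM, and 17 of these were more than 2-fold higher in control replicate 3 than in control replicate 1. The 14 members with a GC content of 50% or more had a median of 8.42 FPKM, and 0 of them were that much higher in control replicate 3. More than 2-fold lower there were CREB3 (log2 ratio −1.03) and PDE2A (−1.01) of the 14. The same held for AKAP9 (−2.02) and CREB5 (−1.04) of the 23, both with few reads. The median SD of log2 CPM was 0.822 in the control, 0.189 in the TGF-β and 0.569 in the TGF-β + uridine group for members of low GC content, and 0.175, 0.0570 and 0.0961 for those of high GC content. All 4 called members were among the 14, and 0 were among the 23. Over all 12319 tested genes with a GC content, 9.11% of those at 50% or more and 3.22% of those under 50% were called in a comparison, and 1.68% and 50.1% were more than 2-fold higher in control replicate 3 than in control replicate 1. PRKAR2A, with a GC content of 45.5% and 4820 to 11858 reads per library, had a wide spread in the control group despite its depth. Across the 37 members, Spearman's rho of FPKM with GC content was 0.632 to 0.744 in the 9 libraries, beside 0.247 to 0.457 over all the tested genes with a GC content. The rho of the log2 ratio of control replicate 3 over control replicate 1 with GC content was −0.51 across the members and −0.77 across all those genes, so that the trend was not particular to the members. These are descriptions across genes of the same libraries, which are not independent replicates.

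**Figure D5:**
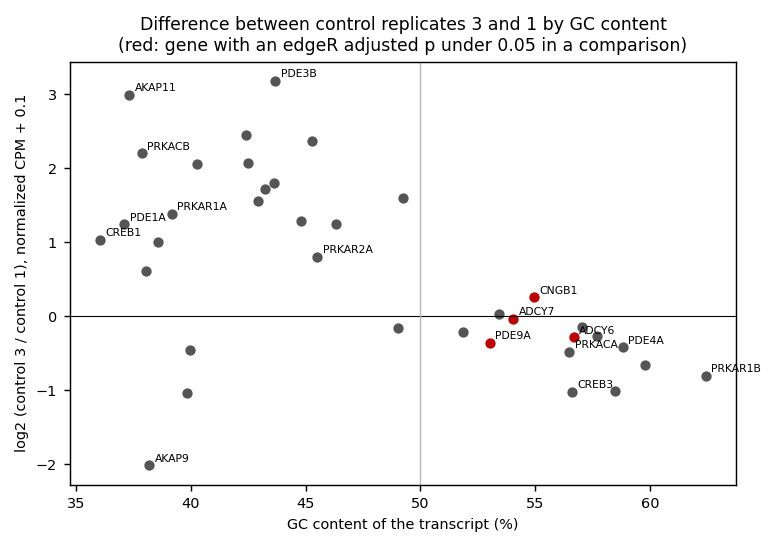
Log2 ratio of normalized CPM (+ 0.1) in control replicate 3 over control replicate 1, for the 37 tested genes. The ratio is set against the GC content of the longest protein-coding transcript of each gene. Red points are the 4 members with an edgeR adjusted p under 0.05 in a comparison. Most genes with a GC content under 50% lie above 0, up to 3.18 for PDE3B, and those of 50% or more lie between −1.03 and 0.25.

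When the GC slope of each library was added to the model, 7 members were called between TGF-β and control, 11 between TGF-β + uridine and TGF-β and 9 between TGF-β + uridine and control, while the background rose to 20.3%, 19% and 31%. The 11 were ADCY3 (0.42), ADCY6 (0.79), AKAP1 (0.22), AKAP8L (0.15), PDE4A (0.24) and the PKA subunit gene PRKAR1B (0.16, SE 0.05, edgeR adjusted p = 0.029) on the higher side and ADCY9 (−0.25), CNGB1 (−1.06), PDE1A (−0.91), PDE3A (−0.55) and PDE4D (−0.59) on the lower side, as log2 fold changes of TGF-β + uridine against TGF-β. PRKAR1B was also called lower in TGF-β than in control under this model (−0.15, SE 0.05, edgeR adjusted p = 0.0379). PRKACA, PRKACB, PRKAR2A, PRKAR1A and the 3 CREB genes were not called between TGF-β + uridine and TGF-β in it.

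The pathway around these genes was read from 9 lists of 71 further genes. Not all of the 71 were in the table of counts or had enough reads to be tested, and the tested genes are counted below for each list. Between TGF-β + uridine and TGF-β, edgeR called 0 of the tested ones, at a background of 0.0448%. The calls in the comparisons with control stand beside a background of 2.42% higher and 0.964% lower for TGF-β, and of 2.89% and 2.44% for TGF-β + uridine. Of 7 Gs and Gi α subunit genes, all were tested, and GNAI2 (221 FPKM) and GNAS (126 FPKM), for Gi and Gs, were the most abundant and were not called. GNAO1 was higher in TGF-β + uridine than in control, at 2.49, 3.32 and 2.33 against 1.33, 1.10 and 0.881 normalized CPM (log2 fold change 1.30, SE 0.27, edgeR adjusted p = 0.0288), and GNAL, for a Gs relative of olfactory neurons, was lower at 1.58, 1.28 and 0.971 against 2.76, 2.72 and 4.28 (−1.35, SE 0.28, edgeR adjusted p = 0.0289). Of 6 Gs-coupled prostanoid and adrenergic receptors listed, 3 were tested, and PTGER2, a prostaglandin E2 receptor, was higher in TGF-β + uridine than in control, at 3.44, 2.25 and 2.51 against 0.622, 0.953 and 1.28 normalized CPM (1.51, SE 0.34, edgeR adjusted p = 0.0369). In none of these 3 genes did the 2 groups overlap. The TGF-β libraries had 1.61, 2.23 and 1.85 for GNAO1, 1.61, 1.67 and 1.705 for GNAL, and 1.51, 2.11 and 2.41 for PTGER2. In that order of genes, TGF-β against control gave log2 fold changes of 0.78, −0.97 and 1.07 (edgeR adjusted p = 0.225, 0.128 and 0.17). TGF-β + uridine against TGF-β gave 0.51, −0.38 and 0.44 (edgeR adjusted p = 0.66, 0.83 and 0.83).

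Of 11 CREB relatives and coactivators, all tested, CREB3L1, a membrane-bound factor that acts on collagen genes, was called higher with TGF-β. Its normalized CPM was 21.2, 15.1 and 11.0 in the control, 46.3, 49.7 and 50.6 in the TGF-β and 33.6, 40.9 and 33.4 in the TGF-β + uridine libraries. The 3 groups did not overlap. The log2 fold change was 1.64 for TGF-β against control (SE 0.22, edgeR adjusted p = 0.00357), 1.19 for TGF-β + uridine against control (SE 0.22, edgeR adjusted p = 0.0141) and −0.44 for TGF-β + uridine against TGF-β (SE 0.21, edgeR adjusted p = 0.614). CREB3L4 was lower in TGF-β + uridine than in control, at 5.19, 5.23 and 4.54 against 12.44, 10.79 and 8.599 (−1.09, SE 0.18, edgeR adjusted p = 0.00923). The coactivator genes CREBBP, EP300, CRTC1, CRTC2 and CRTC3 were not called in any comparison.

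Of 10 genes that CREB is known to induce, all tested, 1 (JUNB) was called higher in TGF-β than in control and 0 lower (background 2.42% and 0.964%), and 1 was called higher (JUNB) and 2 lower (FOS and DUSP1) in TGF-β + uridine than in control (background 2.89% and 2.44%). Other signalling pathways induce these genes too. FOS, an AP-1 subunit, had 14.5, 14.1 and 13.2 normalized CPM in the control, 9.21, 10.7 and 10.5 in the TGF-β and 4.63, 5.36 and 4.92 in the TGF-β + uridine libraries. The 3 groups did not overlap. Its log2 fold change was −1.49 for TGF-β + uridine against control (SE 0.15, edgeR adjusted p = 0.000656) and −1.02 against TGF-β (SE 0.15, edgeR adjusted p = 0.0992). DUSP1, a phosphatase of MAP kinases, had 33.5, 32.4 and 29.1 in the control, 23.7, 24.2 and 22.7 in the TGF-β and 19.0, 16.3 and 17.8 in the TGF-β + uridine libraries (TGF-β + uridine against control −0.84, SE 0.11, edgeR adjusted p = 0.00388). JUNB had 113, 86.8 and 74.8, then 232, 225 and 221, then 192, 215 and 172, and its log2 fold changes against control were 1.30 for TGF-β (SE 0.16, edgeR adjusted p = 0.00203) and 1.08 for TGF-β + uridine (SE 0.16, edgeR adjusted p = 0.00502). The median log2 fold change of the 10 genes was −0.32, −0.32 and −0.18 in TGF-β against control, TGF-β + uridine against TGF-β and TGF-β + uridine against control.

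In the remaining 5 lists edgeR called 0 genes. They hold guanylyl cyclases and natriuretic peptide receptors (3 tested of 6 listed), other cyclic nucleotide effectors (4 of 9), PKA inhibitor peptides (1 of 3), cyclic nucleotide exporters (2 of 2) and anchoring proteins without an AKAP symbol (6 of 7). The soluble guanylyl cyclase subunit GUCY1B1 and the cGMP-dependent kinase PRKG2 had at most 1 count in any library.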

How the data were processed

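RNA of 9 LX-2 libraries (3 control, 3 TGF-β and 3 TGF-β + uridine) was analysed, and libraries were grouped by the labels. The authors deposited a table of read counts per gene, which are whole numbers without normalization, and a table of FPKM values, which are counts scaled by library total and gene length. The submitters' processing notes name fastp, HISAT2, HTSeq, R 3.2.0 and GRCh38.p13, and the strand setting is not given in the sources used here. Counts were tested by edgeR 4.0.16 under R 4.3.3, with its quasi-likelihood test (two-sided) after filterByExpr and TMM scaling, on 1 model of condition over all 9 libraries, with Benjamini-Hochberg adjustment over 13384 genes. The script was tested on simulated data. FPKM served for levels between genes and normalized CPM for levels between groups, and an exact permutation test of 3 against 3 libraries cannot give a p below 0.1.

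Members were chosen by gene symbol. Members, lists and the rule for named genes were chosen with earlier results of these data known. The rule named members with an adjusted p under 0.05 in a comparison or an unadjusted p under 0.05 between TGF-β + uridine and TGF-β, the 2 members of each family with the highest FPKM, all tested PKA and CREB genes and CNGB1. It named list genes only where they were called. Alternatives were RLE normalization, no filter on low counts, DESeq2 1.42.0, only the 2 groups compared, the replicate number as a block, each library's GC slope as a covariate, both together, and each of the 9 libraries left out. GC content and loci come from GENCODE v29 (GRCh38, matched by symbol for 12319 tested genes), and promoters from RefSeq (GRCh38.p14). No libraries were near-identical. The value of 1 stellate cell marker is not reported here.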

Additional observations from a re-analysis of the deposited data

How the results depend on the processing

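In TGF-β against control, higher calls among members were 2 with DESeq2, 2 with the GC slope covariate and 2 with the replicate block and that covariate together, and lower calls were 3, 5 and 4, and 0 with only the 2 groups compared. In TGF-β + uridine against TGF-β, higher calls were 1 with DESeq2, 2 with only the 2 groups, 6 with the covariate and 4 with block and covariate, and lower calls were 1, 2, 5 and 5. In TGF-β + uridine against control, higher calls were 1 with RLE normalization, 1 without the filter, 0 with only the 2 groups and 0 with the replicate block, and lower calls were 4 with DESeq2, 6 with the covariate and 6 with block and covariate. The DESeq2 calls beside those of edgeR were ADCY3 and AKAP1 lower and ADCY7 and PDE2A higher in TGF-β than in control. They were ADCY6 higher and CNGB1 lower in TGF-β + uridine than in TGF-β, and ADCY9, PDE1A and PDE9A lower in TGF-β + uridine than in control. Over all genes, the shares called in either direction in TGF-β against control, TGF-β + uridine against TGF-β and TGF-β + uridine against control were 6.43%, 1.78% and 9.66% with DESeq2, 20.3%, 19% and 31% with the covariate, 17.5%, 15.4% and 28% with block and covariate, 1.77%, 2.44% and 1.7% with only the 2 groups, 2.35%, 0% and 3.27% with the block, 3.21%, 0.0374% and 4.92% with RLE normalization and 1.83%, 0.0193% and 2.64% without the filter. Leaving out each library gave 0 to 1 higher and 0 to 3 lower calls in TGF-β against control, 0 to 2 and 0 to 2 in TGF-β + uridine against TGF-β, and 0 to 3 and 1 to 7 in TGF-β + uridine against control, where the 7 came without control replicate 1 (background 8.16% lower). Same-numbered libraries of different groups had correlations of their deviations between −0.21 and 0.56, and differently numbered ones between −0.66 and 0.63. These values do not settle whether libraries of the same number belong together, and the main model holds no replicate number. The cause of the changes in calls between settings was not tested, except that a model of fewer libraries leaves out their spread by construction.

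The signs of all 4 called members were the same under every alternative. When each library was left out, log2 fold changes crossed 0 for some named members: in TGF-β against control they were −0.224 to 0.105 for AKAP8L, −0.303 to 0.219 for CREB1, −0.106 to 0.453 for CREB3, −0.527 to 0.009 for PDE1A, −0.130 to 0.078 for PDE6D, −0.226 to 0.020 for PRKACA, −0.525 to 0.750 for PRKACB, −0.531 to 0.116 for PRKAR1A, −0.372 to 0.052 for PRKAR1B and −0.090 to 0.264 for PRKAR2A. In TGF-β + uridine against TGF-β they were −0.210 to 0.576 for PRKACB and −0.096 to 0.278 for PRKAR1A. In TGF-β + uridine against control they were −0.062 to 0.054 for ADCY3, −0.089 to 0.225 for AKAP8L, −0.323 to 0.220 for CREB3, −0.020 to 0.172 for PDE4A, −0.159 to 0.072 for PRKACA, −0.335 to 1.065 for PRKACB, −0.476 to 0.186 for PRKAR1A and −0.233 to 0.176 for PRKAR1B. Of these comparisons, that of PRKAR1B between TGF-β and control was called with the GC slope covariate (−0.15, edgeR adjusted p = 0.0379), as was PRKAR1B between TGF-β + uridine and TGF-β (0.16, edgeR adjusted p = 0.029). Other changes of sign were 0.040 (replicate block), 0.025 (covariate) and 0.030 (both) for CREB1 and 0.148, 0.165 and 0.159 for PRKACB in TGF-β against control, −0.011 (covariate) and −0.017 (both) for PRKAR1A in TGF-β + uridine against TGF-β, and 0.008 and 0.011 for ADCY3 and 0.012 and 0.011 for PRKAR1B in TGF-β + uridine against control.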
